A study of Bos taurus with 6 samples.

Results

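The miRNAs described here belong to the miR-181 family (miR-181a, b and d) and to the miR-23/24/27 clusters (miR-23a, miR-23b, miR-24, miR-27a and miR-27b), in RNA of fetal bovine serum (FBS). Every miRNA of these stems was taken by name, with both arms of the hairpin. This gave 14 of the 502 miRNA names found after mapping to the human genome and 14 of the 395 names found after mapping to the mouse genome. In each mapping 9 of the 14 reached an RPM (reads per 1000000 mapped reads) of 1 in at least 3 of the 6 libraries and were tested. Values are those of the human mapping unless the mouse mapping is named. miR-181c was looked for as well, and no name of it was found in either mapping.

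miRNAs are short RNAs cut from the arms of a hairpin, and the arm of origin is written as 5p or 3p. They guide Argonaute proteins to messenger RNAs that match the seed, a short stretch near their 5′ end, and members of the miR-181 family share a seed, as do miR-23a with miR-23b and miR-27a with miR-27b. miR-181 is best known from lymphocyte development, and miR-24, miR-23 and miR-27 from blood and vessel cells. In cattle (assembly ARS-UCD2.0) all 12 genes looked for were found, on 4 chromosomes. MIR181D, MIR181C, MIR23A, MIR27A and MIR24-2 follow each other among the miRNA genes of chromosome 7, and MIR23B, MIR27B and MIR24-1 do so on chromosome 8. MIR181A-1 and MIR181B-1 are neighbours on chromosome 16, and MIR181A-2 and MIR181B-2 on chromosome 11. miR-24-3p is thus encoded in both miR-23/24/27 clusters, and its reads do not tell the loci apart.

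The study asked which RNAs of FBS, the serum of unborn calves added to culture media, could be taken for human or mouse RNA of cultured cells. FBS was spun at 100000 g for 24 h (ultracentrifugation, UC), 40 mL per spin, and small RNA was sequenced from 3 pellets, which are enriched in extracellular vesicles (EVs), and from 3 supernatants, which are depleted of them. The supernatant RNA came from 20 mL concentrated on 3 kDa filters, and both fractions carried 60 ng of kinase-treated RNA into the libraries. According to the paper different batches of serum were spun, and both fractions were taken from them. The labels do not tie a batch to a replicate number, so the fractions were compared unpaired. The p-values measure the spread between these libraries. The calves, their age and the serum supplier were not analysed here. Serum is a cell-free fluid, and a pellet also holds other heavy particles besides EVs.

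The estimated depth was 867426 to 6660802 mapped reads in the pellets and 3081111 to 5373233 in the supernatants, and pellet 3 was the shallowest library. miRNA reads took 6.33 to 12.9% of the mapped reads in the pellets and 5.21 to 5.85% in the supernatants. RPM is a share of the mapped reads, so more of a miRNA and less of all other RNA cannot be told apart. Of all 153 tested names, 73 were higher in the pellets by limma at an adjusted p under 0.05, a share of 47.7%. Names for which every pellet lay above every supernatant made up 66.7% of those tested. In the mouse mapping these shares were 55.9% and 72%.

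As a share of mapped reads, 8 of the 9 tested members rose in the pellets, beside 47.7% of all tested names, and miR-181d-5p did not pass the test. Beside 66.7% of all tested names, the same 8 had every pellet above every supernatant. Among them miR-181a-2-3p, miR-23a-3p and miR-23b-3p met the minimum level for the test only with the help of the pellets, where they were high, so their part in this count carries little weight. Of the 6 members at 1 RPM or more in every supernatant, a limit chosen after the values were seen, 5 rose, beside 51 of 91 such names (56%). Every pellet lay above every supernatant for 5 of these 6 members, beside 68 of the 91 names. The median change of these 6 on the log2(RPM + 1) scale, pellet minus supernatant, was 2.17, against 2.02 over the 91 names. The calls were lost with fewer supernatants, as 0 members passed without supernatant 1 or without supernatant 2, and 1 passed without supernatant 3. At an unadjusted p under 0.05, 8, 7 and 8 members passed in these fits by limma, and of all tested names 0, 0 and 32 passed after adjustment and 67, 61 and 72 before it. Without pellet 1, 5 members passed, beside 49 of all 126 names tested in that fit, and miR-27b-3p, miR-23a-3p and miR-23b-3p were lost. When libraries were scaled by the median of ratios, which makes the typical miRNA equal between libraries, 0 of the 9 passed, also at an unadjusted p under 0.05, and miR-181a-5p, miR-181b-5p and miR-181d-5p turned to lower values in the pellets.

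**Figure D1:**
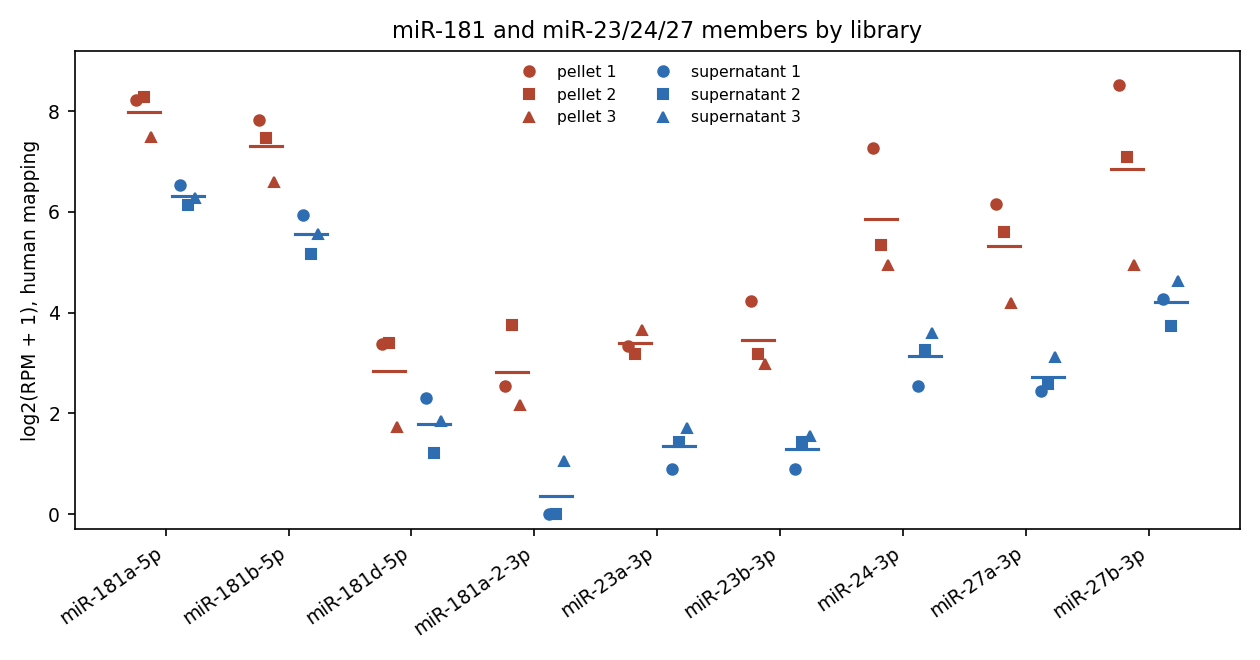
Level of the 9 tested members as log2(RPM + 1) in each library of the human mapping, with pellets in red at the left and supernatants in blue at the right of each name; symbols mark the replicate and bars the mean of the 3 libraries. Pellet and supernatant values overlap for miR-181d-5p alone, and miR-27b-3p has the widest range among the pellets, at 30.0 to 365 RPM.

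The 5p arms of miR-181a and miR-181b were the most abundant members in 5 of the 6 libraries. hsa-miR-181a-5p, which in mice tunes the signal strength of the T cell receptor, had 296, 309 and 178 RPM in pellets 1, 2 and 3, against 92.2, 69.2 and 76.3 RPM in supernatants 1, 2 and 3. The groups did not overlap, and pellet 3 was the lowest of the pellets. Pellets averaged 261 ± 72.1 RPM and supernatants 79.2 ± 11.8 RPM (SD, n = 3 each), a ratio of 3.29. The log2 change was 1.68 (SE 0.40, 95% interval 0.76 to 2.59, adjusted p = 0.0180 by limma), and it turned to -0.36 under scaling by the median of ratios. By rank among all miRNAs of a library, miR-181a-5p stood at places 23, 12 and 11 in the pellets and at places 8, 10 and 10 in the supernatants. It thus ranked higher in each supernatant than in any pellet, while its share of the mapped reads was higher in each pellet.

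hsa-miR-181b-5p, encoded beside miR-181a at both of its loci, had 226, 177 and 96.2 RPM in pellets 1, 2 and 3, against 59.9, 34.7 and 46.5 RPM in supernatants 1, 2 and 3. Pellet 1 was the highest library here and pellet 3 was again the lowest pellet, still above all supernatants. Its log2 change was 1.75 (SE 0.48, adjusted p = 0.0241), which turned to -0.27 under scaling by the median of ratios. On RPM + 1, miR-181b-5p amounted to 0.543 to 0.765 of miR-181a-5p in the pellets and to 0.509 to 0.654 in the supernatants. miR-181a-5p was thus the more abundant in 6 of 6 libraries. Estimated reads of miR-181a-5p were whole in 1 of 6 libraries, so some may be shared between names in the deposited counting, which was not tested. The log2 ratio of miR-181b-5p to miR-181a-5p differed by 0.07 between pellets and supernatants (exact permutation p = 0.80, adjusted p = 1 over the 6 ratios tested), and its sign turned when pellet 1 or supernatant 2 was left out, at -0.08 and -0.03.

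hsa-miR-181d-5p, encoded near the miR-23a cluster in cattle, was far lower, at 9.46, 9.56 and 2.31 RPM in pellets 1, 2 and 3, against 3.97, 1.31 and 2.60 RPM in supernatants 1, 2 and 3. Pellet 3 fell among the supernatants, and its value rests on an estimated 2 reads, with a counting interval of 0.279 to 8.33 RPM. The log2 change was 1.05 (95% interval -0.64 to 2.74, adjusted p = 0.241), and it was -0.58 under scaling by the median of ratios. The 3p arms of miR-181 were rare. hsa-miR-181a-2-3p had 4.85, 12.5 and 3.46 RPM in pellets 1, 2 and 3, against 0, 0 and 1.08 RPM in supernatants 1, 2 and 3, where 3 reads amount to 0.558, 0.783 and 0.974 RPM. It reached the minimum level for the test through the pellets, so its log2 change of 2.47 (adjusted p = 0.0241) carries little weight, and its size depends on the pseudocount. hsa-miR-181a-3p, the opposite arm of the other miR-181a locus, was found in pellet 1 alone, at 5.71 RPM.

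The 3p arms of the miR-23/24/27 clusters were all higher in the pellets as a share of mapped reads, and 5 of 5 tested names passed, with log2 changes of 2.05 to 2.72, beside 47.7% called and a median of 2.05 over all tested names. Of the 5, miR-24-3p, miR-27a-3p and miR-27b-3p were at 1 RPM or more in every supernatant. Their sign was the same under each scaling, although 3 of the 5 passed per miRNA read and 0 under scaling by the median of ratios. hsa-miR-24-3p, known for holding down cell cycle genes during blood cell differentiation, had 153, 39.5 and 30.0 RPM in pellets 1, 2 and 3, against 4.84, 8.61 and 11.0 RPM in supernatants 1, 2 and 3. Every pellet lay above every supernatant, and pellet 1 stood far above the other pellets. Pellets averaged 74.2 ± 68.6 RPM and supernatants 8.16 ± 3.12 RPM (SD, n = 3 each), a ratio of 9.09. Without pellet 1 the ratio of the means was 4.26. The log2 change was 2.72 (SE 0.72, 95% interval 1.06 to 4.38, adjusted p = 0.0229 by limma). Estimated reads were 26 in pellet 3 and 26 in supernatant 1, at very different depths, and the counting intervals of 19.6 to 43.9 RPM in pellet 3 and 3.16 to 7.09 RPM in supernatant 1 did not overlap. Intervals of this kind cover counting error only.

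hsa-miR-27b-3p, a regulator of lipid metabolism and vessel growth, had 365, 136 and 30.0 RPM in pellets 1, 2 and 3, against 18.4, 12.3 and 23.6 RPM in supernatants 1, 2 and 3. It was the most abundant member in pellet 1, and in pellet 3 it lay barely above supernatant 3, and the counting intervals of 19.6 to 43.9 RPM in pellet 3 and 18.5 to 29.7 RPM in supernatant 3 overlapped. Pellets averaged 177 ± 171 RPM and supernatants 18.1 ± 5.67 RPM (SD, n = 3 each), with a log2 change of 2.64 (SE 0.85, 95% interval 0.69 to 4.60, adjusted p = 0.0366). Without pellet 1 the pellets averaged 82.9 RPM and the log2 change was 1.81 (adjusted p = 0.0560), and without pellet 2 it was 2.52 (adjusted p = 0.0664). hsa-miR-27a-3p, which shares its seed, had 70.3, 47.6 and 17.3 RPM in pellets 1, 2 and 3, against 4.43, 5.0 and 7.74 RPM in supernatants 1, 2 and 3. The pellets came in the same order as for miR-27b-3p, and pellet 3 stayed above all supernatants. Its log2 change was 2.60 (SE 0.67, 95% interval 1.06 to 4.14, adjusted p = 0.0225). miR-27b-3p exceeded miR-27a-3p in 6 of 6 libraries. On RPM + 1, which lowers the ratio at such levels, it was 1.69 to 5.13 in the pellets and 2.22 to 3.57 in the supernatants. The log2 ratio differed by 0.04 between the fractions (exact permutation p = 1). Estimated reads were whole in 1 of 6 libraries for miR-27b-3p and in 1 of 6 for miR-27a-3p. These names may share reads in the deposited counting, which was not tested, so their ratio is uncertain.

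hsa-miR-23b-3p, first gene of its cluster on cattle chromosome 8, had 17.7, 8.06 and 6.92 RPM in pellets 1, 2 and 3, against 0.852, 1.70 and 1.95 RPM in supernatants 1, 2 and 3. Its log2 change was 2.17 (SE 0.66, adjusted p = 0.0318). hsa-miR-23a-3p, its counterpart of the same seed on chromosome 7, had 9.16, 8.06 and 11.5 RPM in pellets 1, 2 and 3, against 0.852, 1.70 and 2.27 RPM in supernatants 1, 2 and 3, with a log2 change of 2.05 (SE 0.62, adjusted p = 0.0316). Without pellet 1 the log2 changes were 1.79 for miR-23b-3p (adjusted p = 0.0728) and 2.07 for miR-23a-3p (adjusted p = 0.0556). No pellet overlapped a supernatant for either name. Of the 9 tested members, miR-23a-3p was the only one with its highest value in pellet 3. miR-23a-3p and miR-23b-3p had identical values in 3 libraries, pellet 2 and supernatants 1 and 2, in both mappings, and estimated reads there were not whole. These near-identical miRNAs may share reads in the deposited counting, so a difference between them is uncertain.

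The 5p arms of these clusters had few reads, at most an estimated 19, for miR-27a-5p in pellet 1. miR-24-2-5p had an estimated 7 reads in pellet 1, 0 in pellet 2 and 9 in pellet 3 (10.4 RPM in this shallow library), against 0 in each supernatant. miR-24-1-5p, the arm from the other locus, had 1, 0 and 0 reads in pellets 1, 2 and 3, against 7, 0 and 2 in supernatants 1, 2 and 3. miR-27a-5p and miR-27b-5p reached at most 2.85 RPM in pellet 1. None of these 4 names was tested, and a value of 0 allows up to 1.91 RPM in pellet 2, 3.46 RPM in pellet 3 and 0.558 to 0.974 RPM in the supernatants, taken as 3 reads.

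The make-up of the members differed more between pellets than between supernatants. The 5 names of miR-181 summed to 542, 508 and 280 RPM in pellets 1, 2 and 3, against 156, 105 and 126 RPM in supernatants 1, 2 and 3, a ratio of the means of 3.43. The 9 names of miR-23/24/27 summed to 621, 239 and 106 RPM in pellets 1, 2 and 3, against 30.6, 29.3 and 47.6 RPM in supernatants 1, 2 and 3, a ratio of 8.99. Without pellet 1 these ratios were 3.05 for miR-181 and 4.81 for miR-23/24/27, so much of the contrast rests on that library. miR-181 accordingly held 46.6, 68.0 and 72.5% of the members' RPM in pellets 1, 2 and 3, against 83.6, 78.2 and 72.7% in supernatants 1, 2 and 3. Pellet 3 and supernatant 3 nearly met, and pellet 1 was the library with the lowest share of miR-181. All members together took 0.902, 0.966 and 0.610% of the miRNA reads in pellets 1, 2 and 3, against 0.319, 0.244 and 0.334% in supernatants 1, 2 and 3.

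**Figure D2:**
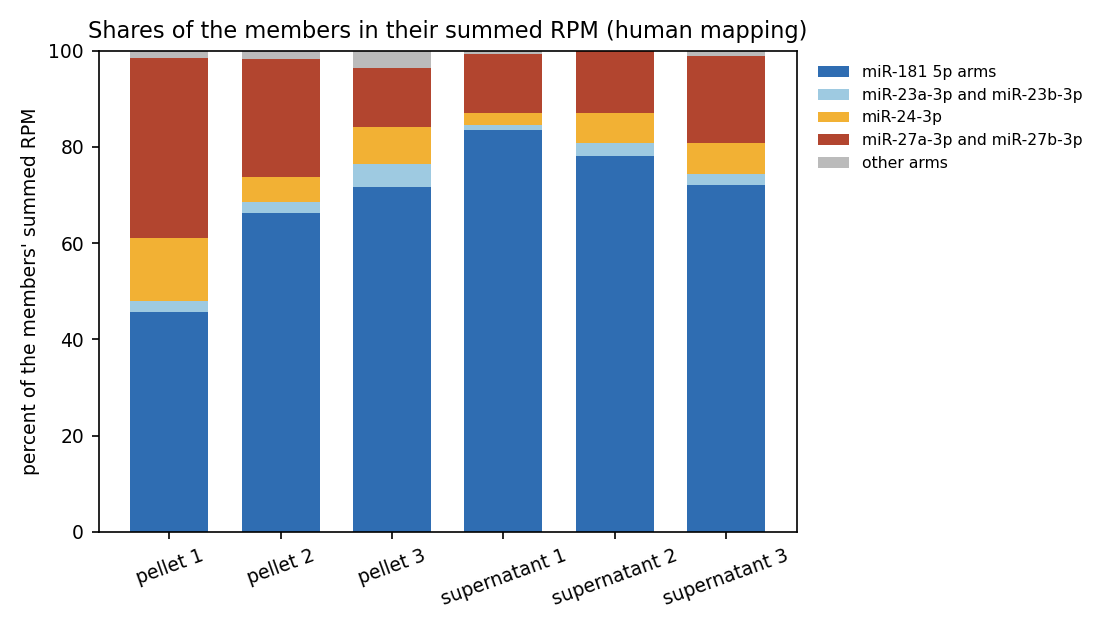
Percent of the members' summed RPM taken by each group of names, as stacked bars for pellets 1 to 3 at the left and supernatants 1 to 3 at the right (human mapping). The miR-181 5p arms take 45.7% in pellet 1 and 83.6% in supernatant 1, while they take 71.6% in pellet 3 and 72.0% in supernatant 3.

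The ratio of miR-181a-5p to miR-24-3p sums up this difference within libraries, where the scaling cancels except for the pseudocount. On RPM + 1 this ratio was 1.92, 7.65 and 5.78 in pellets 1, 2 and 3, against 16.0, 7.30 and 6.42 in supernatants 1, 2 and 3. The groups overlapped, and the log2 difference of -1.05 did not pass (exact permutation p = 0.30, adjusted p = 1). It was -0.45 without pellet 1 and -0.64 without supernatant 1. The other ratios tested, miR-23a-3p and miR-27a-3p to miR-24-3p and miR-23b-3p to miR-23a-3p, differed by -0.67, -0.12 and 0.12 on the log2 scale (exact permutation p = 0.70, 0.80 and 0.90), and all 3 changed sign without pellet 1, to 0.06, 0.17 and -0.28. With 3 libraries against 3 the smallest p possible is 0.10, so this design could not pass 0.05 for any ratio.

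Pellet 1, the deepest library, held the highest value for 5 of the 9 tested members. It exceeded pellet 3 by 12.2 times for miR-27b-3p, 5.11 times for miR-24-3p, 4.10 times for miR-181d-5p and 4.07 times for miR-27a-3p. The excess was 2.56 times for miR-23b-3p, 2.35 times for miR-181b-5p and 1.66 times for miR-181a-5p. The same ratio had a median of 2.07 (quartiles 1.13 and 3.92) over the 130 tested names found in all pellets. miR-23a-3p stood on the other side, at 0.795. miR-27b-3p, miR-24-3p, miR-181d-5p and miR-27a-3p were thus above the upper quartile, and miR-181a-5p and miR-23a-3p below the median. In pellet 3, miR-181d-5p and miR-23a-3p rest on an estimated 2 and 10 reads, with counting intervals of 0.279 to 8.33 and 5.53 to 21.2 RPM. Their places are uncertain, so no statement on the families is drawn from this order. The part of depth in these ratios was not tested. Among the supernatants miR-181a-5p varied little, with the highest library at 1.33 times the lowest, against a median of 2.04 over the 126 tested names found in all supernatants.

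Scaling by the median of ratios moved each tested member by more than its standard error. Scaled per miRNA read, the median over all tested names was 1.49, and under scaling by the median of ratios it was 0.39. Per miRNA read 24.2% of all tested names passed as higher in the pellets, and 3 of the 9 members did: miR-24-3p at 2.12 (adjusted p = 0.0346), miR-27a-3p at 2.02 (adjusted p = 0.0435) and miR-27b-3p at 2.03 (adjusted p = 0.0492). miR-181a-5p was at 1.04 there, with an adjusted p of 0.0548. Under scaling by the median of ratios miR-24-3p was at 0.79 (95% interval -0.56 to 2.14) and miR-181a-5p at -0.36 (95% interval -0.98 to 0.27), and 0 of the 9 members passed, beside 0.654% of all tested names. Relative to the median of all names, miR-181a-5p, miR-181b-5p and miR-181d-5p lay below it and the 3p arms of miR-24 and miR-27 above it under all 3 scalings. This position is a description without a test.

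**Figure D3:**
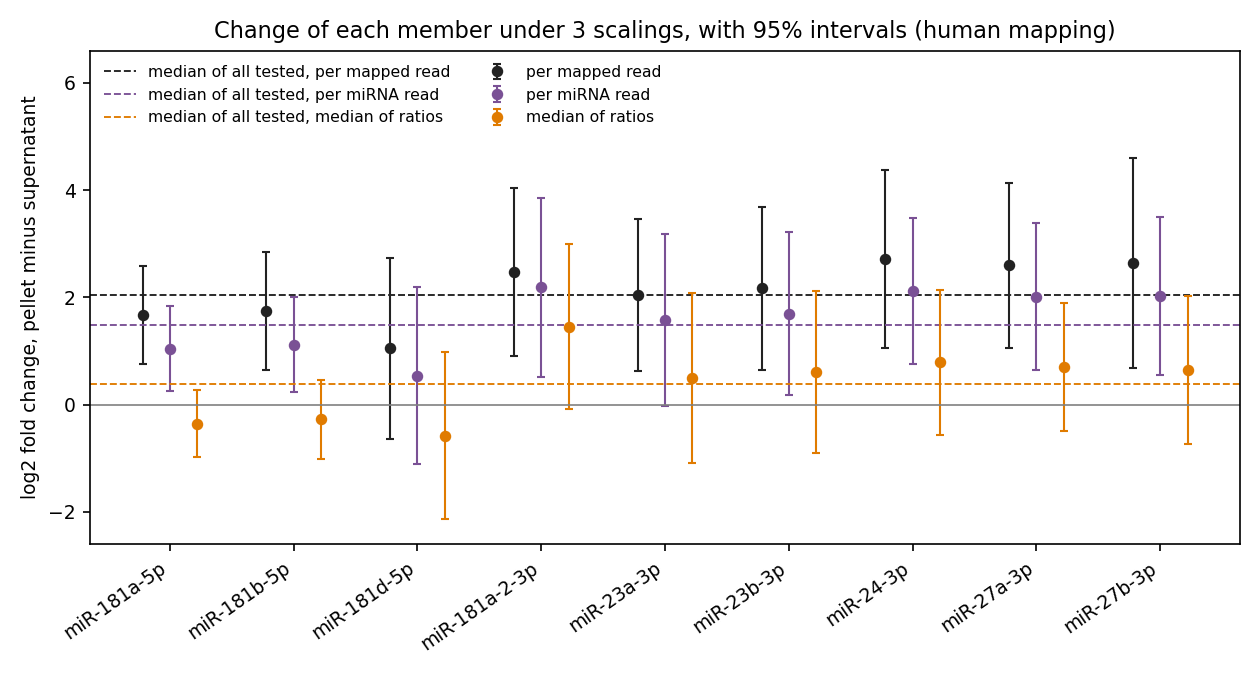
Log2 fold change, pellet minus supernatant, of the 9 tested members under 3 scalings of the human mapping, with points for the estimate, bars for the 95% interval and dashed lines for the median of all 153 tested names. miR-181a-5p is at 1.68 per mapped read, 1.04 per miRNA read and -0.36 under the median of ratios, and miR-24-3p is at 2.72, 2.12 and 0.79.

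The mouse mapping gave 8 of 9 tested members higher in the pellets, beside 55.9% of all tested names, and miR-181d-5p was again the name that did not pass. Of the 6 members at 1 RPM or more in every supernatant 5 passed, beside 60.5% of such names, with a median log2 change of 2.23 against 2.02. Per miRNA read 0 passed by limma, where 3 had an unadjusted p under 0.05, beside 6.29% of all tested names, and under the median of ratios 0 passed at either threshold, beside 0.699%. Without supernatant 1, 2 or 3, 0 members passed in the mouse mapping by limma, and 7, 6 and 8 had an unadjusted p under 0.05. Of all tested names 0, 0 and 30 passed as higher in these fits. The reads are those of the same libraries, so this is no second sample. Estimated reads under the mouse name amounted to 99.9 to 103% of those under the human name for miR-181a-5p and to 99.1 to 100% for miR-24-3p. They were lower for miR-27a-3p, at 78.8 to 97.4%, and for miR-27b-3p, at 89.7 to 99.8%. They were higher for miR-181a-2-3p, at 111 and 137% in pellets 1 and 2, and for miR-23a-3p in pellet 1, at 115%. Of 43 values of members with at least 10 reads, 30 were within 5% of each other in the 2 mappings.

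**Figure D4:**
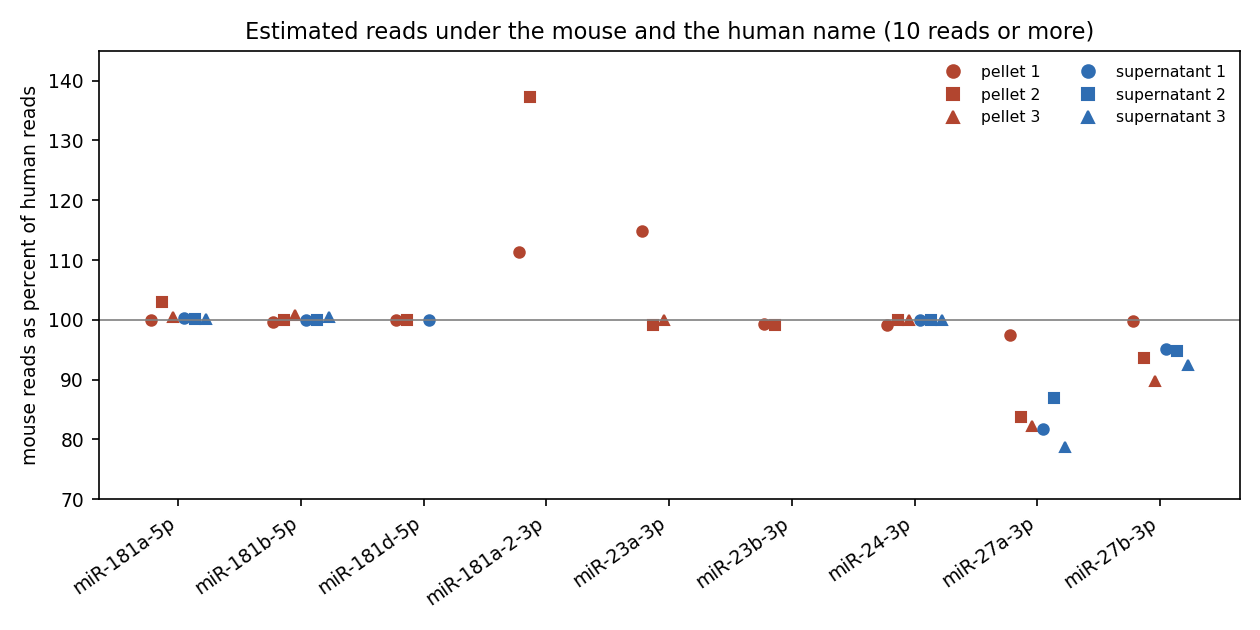
Estimated reads under the mouse name as a percent of those under the human name, for each of the 9 tested members and each library with at least 10 reads in the human mapping; pellets are red, supernatants blue. miR-181a-5p, miR-181b-5p and miR-24-3p lie near 100%, and miR-27a-3p reaches down to 78.8% in supernatant 3.

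By profile over the 6 libraries, the miRNAs most like miR-181a-5p were miR-134-5p, miR-106b-5p and miR-181b-5p. Their root mean square difference from it, in centred log2(RPM + 1), was 0.14, 0.18 and 0.19, against a median of 0.85 over the other tested names. miR-24-3p stood at place 82 in this order. Most like miR-24-3p were let-7a-5p, miR-21-5p and miR-139-5p, at 0.25, 0.36 and 0.40, against a median of 1.09. Of its own clusters, miR-23b-3p came at place 7, miR-27a-3p at place 8, miR-27b-3p at place 20 and miR-23a-3p at place 43. miR-21-5p, abundant in many cell types, had 343, 148 and 136 RPM in pellets 1, 2 and 3, against 12.7, 22.5 and 34.1 RPM in supernatants 1, 2 and 3.

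Markers of possible source cells were measured beside the members. Of 8 leukocyte and endothelial names found, 3 were tested and 1 was higher in the pellets, miR-21-5p (log2 change 3.09, adjusted p = 0.00913 by limma). The list median was 2.10 against 2.05 over all tested names. miR-142-3p, miR-150-5p and miR-126-5p belonged to the list and were not found in the human mapping. The list's sum ranged over 185 to 402 RPM for pellets, against 27.2 to 57.4 RPM for supernatants. miR-223-3p, which defines myeloid cells, was at 0.196 RPM in pellet 2, less than 1 read, and at 0 in the other libraries. The other untested names were low as well. miR-221-3p reached 8.29 RPM in pellet 2, and miR-155-5p 2.55 and miR-222-3p 1.05 RPM in pellet 1. miR-146a-5p reached 0.192 RPM in pellet 3. miR-142-5p, a blood cell miRNA, had 31.3, 241 and 39.2 RPM in pellets 1, 2 and 3, against 12.7, 13.9 and 18.4 RPM in supernatants 1, 2 and 3 (adjusted p = 0.0532). It was highest in pellet 2, whereas miR-24-3p and miR-27b-3p were highest in pellet 1. The remaining tested name of the list, miR-126-3p, had 9.31, 4.49 and 9.22 RPM in pellets 1, 2 and 3. Its supernatants 1, 2 and 3 had 1.67, 1.83 and 4.54 RPM, and it did not pass (log2 change 1.26, adjusted p = 0.134 by limma). The only name called, miR-21-5p, is abundant in many cell types. Red blood cell names summed to 143 to 491 RPM per pellet, against 11.9 to 20.9 RPM per supernatant. Liver names summed to 49661 to 92899 RPM per pellet, against 30991 to 40809 RPM per supernatant. Of these, 1 of 2 tested red blood cell names (miR-486-5p) and 1 of 3 tested liver names (miR-192-5p) passed, both higher in the pellets. miR-144-5p of the red blood cell list and miR-122-3p and miR-885-5p of the liver list were not found. The liver sum was almost wholly miR-122-5p, with means of 64754 RPM in pellets and 35095 RPM in supernatants. miR-122-5p did not pass (log2 change 0.83, adjusted p = 0.0510 by limma), and miR-192-5p averaged 57.5 RPM in pellets. In the mouse mapping miR-122-5p passed as higher in the pellets (log2 change 0.98, adjusted p = 0.0238 by limma). There 3 of 3 tested liver, 2 of 3 red blood cell and 1 of 2 leukocyte and endothelial names passed, beside 55.9% of all tested names. The part of these cell types in the members' levels was not tested.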

How the data were processed

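Small RNA libraries of 3 pellets and 3 supernatants were sequenced with 50 nt reads of 15 to 65 nt inserts. The authors' deposited values are RPM, reads per 1000000 mapped reads of each library. The human mapping (hg19) was made with the exceRpt pipeline. For the mouse mapping, mm10 is named in the submitters' processing notes, while the pipeline is not given in the sources read. Deposited tables of RNA classes were not used. Names were matched to cattle genes in a RefSeq table.

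log2(RPM + 1) was tested by limma 3.58.1 (R 4.3.3), two-sided, with a variance trend and no covariate, on names at 1 RPM or more in at least 3 of 6 libraries. P-values were adjusted by Benjamini-Hochberg over each whole table at 0.05. Fold changes on this scale understate those of low miRNAs. Ratios between members, on RPM + 1, were tested by exact permutation over 20 relabellings, adjusted over 6 ratios. Printed ratios between members within a library are of RPM + 1. Other printed ratios, of means and between libraries, are of RPM. To estimate mapped reads, 1 read was set to the smallest value that 6 or more miRNAs of a library had in common. Since 35.6 to 59.6% of the values were whole within 0.02 reads, no count model was fitted. Counting intervals are exact Poisson intervals at 95%. Members at a mean of 10 RPM in a fraction were to be given by library, with the 3 most alike names for miR-181a-5p and miR-24-3p; the others were given so after their values were seen. Members and lists were chosen with earlier results of these data known. The limma fit was tested on simulated data and the permutation test on made values.

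Alternatives were pseudocounts of 0.1 and 10 RPM, other filters and scalings, no variance trend, a block for the replicate number, and dropping each library in turn. A scaling without miR-122-5p and miR-1246 was added after seeing the data.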

Additional observations from a re-analysis of the deposited data

How the results depend on the processing

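Of the 131 alternative values of the members' log2 changes in the human mapping, 67 kept their direction and side of the threshold, 58 kept the direction and no longer passed, and 6 reversed; in the mouse mapping these were 60, 65 and 6. The causes were not tested. In the human mapping, 8 calls became 4 with a pseudocount of 10 RPM, 5 of 5 tested with a filter at 10 RPM, 3 per miRNA read, and 0 without a filter, under the median of ratios, and per miRNA read without miR-122-5p and miR-1246 (limma; 8, 0 and 0 at an unadjusted p under 0.05). In the mouse mapping 8 calls became 3 with a pseudocount of 10 RPM, 5 of 5 tested with a filter at 10 RPM, and 0 per miRNA read, without a filter and under both other scalings (3, 8, 0 and 0 unadjusted). With the filter at 10 RPM most names passed, 61 of all 75 tested in the human and 55 of 68 in the mouse mapping. Leaving out each library gave 0 to 8 calls in both mappings, with 0 without supernatant 1 or supernatant 2 (8 and 7 unadjusted in the human, 7 and 6 in the mouse mapping) and, in the mouse mapping, also without supernatant 3 (8 unadjusted).

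Over all names of the human mapping, 73 calls became 38 with a pseudocount of 10 RPM, 37 per miRNA read with 1 lower, 11 without a filter, and 1 with 5 lower under the median of ratios and without miR-122-5p and miR-1246. In the mouse mapping 80 became 34, 9 with 1 lower, 10, and 1 with 7 lower under the same settings. Leaving out each library gave 0 to 93 names higher in the human and 0 to 87 in the mouse mapping. In the mouse mapping miR-181a-5p, miR-181b-5p and miR-181d-5p were at -0.40, -0.33 and -0.58 under the median of ratios, and at -0.41, -0.34 and -0.62 without miR-122-5p and miR-1246. In the human mapping they were at -0.36, -0.27 and -0.58, and at -0.48, -0.39 and -0.71.

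Of 60 alternative values of the ratios 51 kept their sign. The ratio of miR-27b-3p to miR-27a-3p was -0.078 with a pseudocount of 0.1 RPM. Without each library in turn, the log2 differences ranged from -0.077 to 0.17 for miR-181b-5p to miR-181a-5p, from -1.25 to 0.056 for miR-23a-3p to miR-24-3p, from -0.52 to 0.17 for miR-27a-3p to miR-24-3p, from -0.37 to 0.43 for miR-27b-3p to miR-27a-3p and from -0.28 to 0.49 for miR-23b-3p to miR-23a-3p.

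With the replicate block 6 members were called in each mapping, beside 78 of all 153 tested names in the human and 73 of 143 in the mouse mapping. miR-23a-3p and miR-23b-3p no longer passed, at an adjusted p of 0.0774 and 0.0656 in the human and 0.0729 and 0.0667 in the mouse mapping. According to the paper both fractions were taken from the same serum batches, but the labels tie a pellet to a supernatant by number only. Those of the same number correlated at -0.19 to 0.27 in the human mapping, and 1 of 3 pellets was closest to the supernatant of its own number. So few pairs cannot show whether libraries of the same number came from the same serum. Pellet 3, with 867426 estimated reads, limits the low members: 3 reads there amount to 3.46 RPM.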
